A study of Mus musculus with 10 samples.

Results

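The genes described here encode the proteins of the cytoplasmic ribosome. They were taken by name, as every entry of the gene table called Rpsa or named Rpl or Rps with a number, a P-stalk letter or a closing a, x or l. This gave 83 of the 55418 named entries, and 79 of them passed the filter on low counts. The 4 that did not were Rpl3l, Rpl10l, Rpl39l and Rps4l, at or near 0 throughout. The annotation lists 80 of the 83 as protein-coding and Rps4l, Rpl32l and Rpl6l as pseudogenes.

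The levels come from sequencing of poly-A RNA from 10 mouse mammary carcinoma lines with 1 library each. The 3 metastasis lines (numbered 5, 3 and 7) came from lung metastases, the 3 CTC lines (1, 3 and 6) from circulating tumour cells and the 3 primary lines (5, 7 and 8) from fat pad xenografts. All 9 were grown out of NOD-SCID-GAMMA mice, an immunodeficient strain, and per the labels each goes back to circulating tumour cells of mice inoculated with the parental line. That parental line, 4T1-hHER2, is a mouse mammary carcinoma line of BALB/cfC3H origin with lentiviral human HER2 and luciferase, and it had 1 library. The human HER2 insert was not analysed here. The age of the mice and any treatment are not given in the sources used here, and what the numbers stand for is not stated. A difference between the groups is a difference between cultured lines, and each p-value reflects no more than the spread among them.

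A ribosome is built from a large and a small subunit, each a core of ribosomal RNA covered by proteins, most of which are needed in equal numbers. Most of the messenger RNAs of these proteins begin with a run of pyrimidines, the 5' terminal oligopyrimidine (TOP) motif, through which mTOR and LARP1 control their translation. Some members have roles beyond the ribosome, such as Rpl5 and Rpl11, which bind the p53 inhibitor Mdm2 when assembly is disturbed.

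The start of the transcript is where the TOP motif lies, so the 30 bases around the annotated start (10 before it and 20 after it) are shown for 8 members. The first 4 are the members with a promoter entry whose level followed the other members most closely over the 10 libraries, and the last 4 are those that followed them least. Sequences are from RefSeq on GRCm38.p6, written 5' to 3' along the gene's strand. Capitals mark the longest run of a C followed by at least 6 letters that are C or T.
Rpl13a, chr7:45128726-45128755, minus strand: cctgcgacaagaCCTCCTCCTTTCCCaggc
Rplp2, chr7:141447641-141447670, plus strand: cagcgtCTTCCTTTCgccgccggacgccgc
Rps15a, chr7:118116128-118116157, minus strand: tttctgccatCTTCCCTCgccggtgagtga
Rps13, chr7:116334171-116334200, minus strand: caaacgtcggtgagtggcgtcacttcctgt
Rpl10, chrX:74270806-74270835, plus strand: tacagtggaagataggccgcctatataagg
Rps4x, chrX:102189372-102189401, minus strand: gctgggcggagcaacccaggctccagcgcg
Rpl37a, chr1:72711250-72711279, plus strand: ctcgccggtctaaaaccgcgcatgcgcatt
Rpl6, chr5:121204491-121204520, plus strand: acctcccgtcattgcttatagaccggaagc

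Of the 4 members that followed the others closely, 3 have the run in this window, and the 4 that did not follow them have none. The windows are set at the most upstream RefSeq start, and that of Rpl37a ends before the start of the gene in GENCODE M21 (72711290). It could therefore not show a run at that start, and so few windows, picked by their r, allow no conclusion. Over all 61 members with a promoter entry, 41.1% of the 73 windows held the run on the gene's strand, against 13.5% of the 32851 windows of all genes. In the 300 bases from 250 before to 50 after the start, searched on both strands, the letters CCGGAAG stood in 35.6% of the members' promoters and 8.86% of all promoters. The letters ATGGCG stood in 30.1% of the members' promoters against 8.93% of all, and the E-box CACGTG in 11.0% against 7.15%. The match is to letters only, and a window without the run says only that these letters are not in it.

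Ribosomal protein genes took 5.13%, 4.80% and 6.58% of the named-gene counts in metastasis 5, 3 and 7. They took 5.94%, 4.89% and 7.92% in CTC 1, 3 and 6. The share was 5.64%, 5.70% and 6.46% in primary 5, 7 and 8, and 7.28% in the parental library. The groups overlap, and each derived group has 1 line well above the others (metastasis 7, CTC 6 and primary 8). The means were 5.50 ± 0.949% in metastasis, 6.25 ± 1.54% in CTC and 5.93 ± 0.459% in primary lines (SD, n = 3 each), so the means lie closer together than the lines of the CTC group. Large-subunit genes took 3.41 ± 0.598% in metastasis, 3.82 ± 0.964% in CTC and 3.72 ± 0.304% in primary lines, and small-subunit genes 2.09 ± 0.357%, 2.43 ± 0.574% and 2.22 ± 0.156% in the same order (SD, n = 3 each). In bulk RNA, a lower share in a line cannot be told apart from more RNA of other genes.

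**Figure D1:**
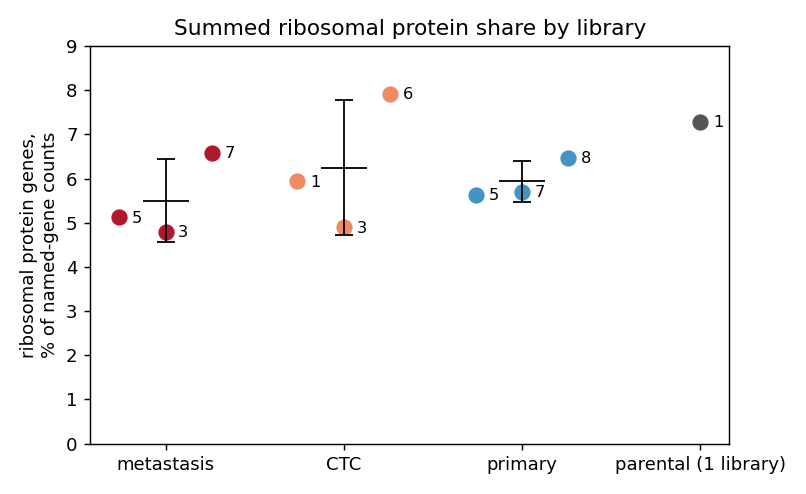
Percent of named-gene counts in the 83 ribosomal protein genes, 1 point per library with its number, for metastasis, CTC, primary and parental lines; dashes and bars give the mean and SD of 3 lines. CTC 6 is highest at 7.92% and metastasis 3 lowest at 4.80%, and the groups overlap.

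Most members were high or low together from line to line, within groups as well as between them. For each member, the log2 CPM (counts scaled to a common library size, prior count 2) was correlated over the 10 libraries with the mean of the other tested members. This Pearson r was above 0.8 for 49 of 79 members (62%), while 5.75% of the other genes tested reached that r with the members' mean. All points share the same 10 libraries and their scaling, so the values are a description. Without CTC 6, 40 members were above 0.8.

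The mean deviation of the members from their own average, on the log2 scale, put the lines in one order. It was 0.45 in CTC 6, 0.33 in parental 1, 0.20 in primary 8, 0.07 in metastasis 7 and 0.03 in CTC 1. It was -0.07 in primary 7, -0.13 in primary 5, -0.24 in metastasis 5, -0.30 in CTC 3 and -0.35 in metastasis 3. Of the 79 members, 40 had their highest level in CTC 6 and 24 in the parental library, and 31 had their lowest in metastasis 3 and 16 in CTC 3.

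Rps13, a small-subunit protein gene, was among the members that followed the others most closely (r = 0.97). Its level was 390, 324 and 548 CPM in metastasis 5, 3 and 7, and 506, 324 and 748 CPM in CTC 1, 3 and 6. In primary 5, 7 and 8 its level was 359, 455 and 518 CPM, and in the parental library 697 CPM. CTC 6 and the parental library are highest, and metastasis 3 and CTC 3 lowest. Rpl13a, Rplp2 and Rps15a (each r = 0.96) followed the others about as closely. Over the members the SD of log2 CPM had a median of 0.35, against 0.70 over all genes tested. The genes tested include genes with far lower counts than most members, and no set matched on level was compared. The median highest-to-lowest ratio of the members was 2.07-fold.

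**Figure D2:**
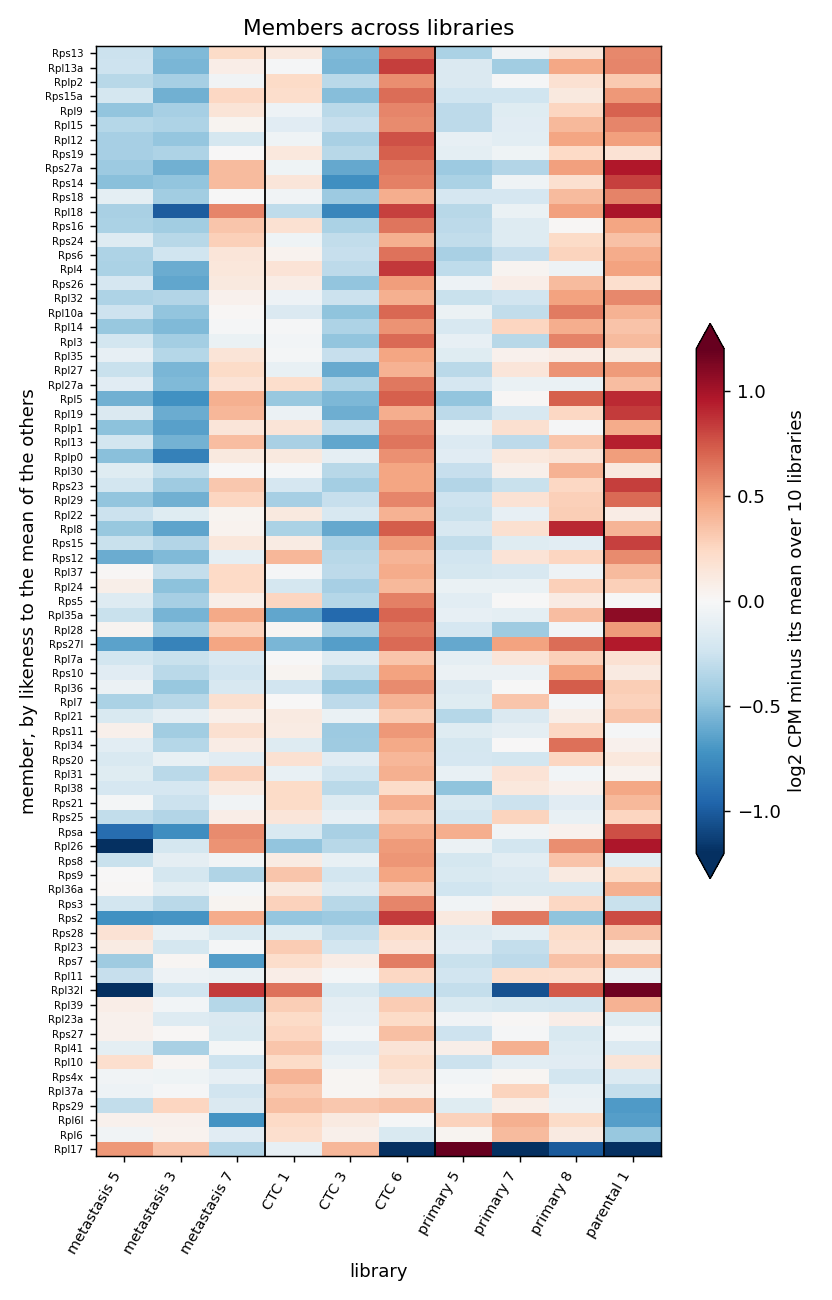
Log2 CPM (with a small offset) of 77 of the 79 tested members (rows, most to least like the mean of the others) minus its mean over the 10 libraries (columns, by group), from blue (below) to red (above). CTC 6, parental 1 and primary 8 are red over most rows and metastasis 3 and CTC 3 blue, and the bottom rows, such as Rps29, Rpl6 and Rpl17, do not follow them.

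A small set of members did not follow the others. The r was below 0 for 7 members, among them Rps4x (-0.02), Rpl37a (-0.21), Rps29 (-0.24), Rpl6l (-0.39), Rpl6 (-0.50) and Rpl17 (-0.57), and it was between 0 and 0.3 for Rpl10 (0.25), Rpl41 (0.26) and Rps27 (0.27). Rpl6 encodes a large-subunit protein and Rpl6l is a pseudogene of it. Rpl6 was at 1117, 1183 and 1043 CPM in metastasis 5, 3 and 7, at 1323, 1200 and 1011 CPM in CTC 1, 3 and 6, at 1176, 1491 and 1236 CPM in primary 5, 7 and 8, and at 837 CPM in the parental library. Its lowest levels were thus in the parental library and in CTC 6, the 2 libraries where most members were highest.

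The median r over all members was 0.85, and 2 of those well below it are given by library. Rps4x encodes a small-subunit protein. It was at 1147, 1139 and 1098 CPM in metastasis 5, 3 and 7, at 1559, 1199 and 1311 CPM in CTC 1, 3 and 6, at 1154, 1201 and 1011 CPM in primary 5, 7 and 8, and at 1049 CPM in the parental library. Rpl10 encodes a protein that joins the large subunit late in its maturation. It was at 1426, 1264 and 1045 CPM in metastasis 5, 3 and 7, at 1458, 1180 and 1451 CPM in CTC 1, 3 and 6, at 1041, 1135 and 1133 CPM in primary 5, 7 and 8, and at 1385 CPM in the parental library. These levels varied little, with an SD of log2 CPM of 0.18 for Rps4x and 0.19 for Rpl10. Members with the pyrimidine run shown above had a median r of 0.90 (29 members) and those with a promoter entry but no such run 0.76 (29 members). The ranges overlap, at 0.27 to 0.96 with the run and -0.50 to 0.97 without it, and the difference was not tested.

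Metastasis against primary asks how lines from lung metastases differ from lines from fat pad tumours. In these lines 16 of 79 members were higher and 63 lower, and none passed the test. The median log2 change of the members was -0.16, against 0.01 over all genes tested. Over all 19936 genes 50.3% were above 0 and 49.5% below. The lean depends on the lines and the fit: without primary 8 it was 40 higher and 39 lower with a median of 0.00055, and with upper-quartile scaling 26 higher and 53 lower. With the line's number as a fixed block the direction turned, to 48 higher and 31 lower with a median of 0.07, and with the number as a random block it was 31 higher and 48 lower with a median of -0.05. In edgeR's quasi-likelihood fit with Benjamini-Hochberg correction 0 members were called (0% of all genes), 0 had an unadjusted p under 0.05 (8.29% of all genes), and DESeq2 and limma-voom called 0 members. How many of all genes DESeq2 called, here and in the comparisons below, is given in the last section.

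Rps12, a small-subunit protein gene, was at 667, 696 and 932 CPM in metastasis 5, 3 and 7 and at 861, 1129 and 1204 CPM in primary 5, 7 and 8. Rpl14, of the large subunit, was at 621, 589 and 843 CPM in metastasis 5, 3 and 7 and at 745, 1015 and 1152 CPM in primary 5, 7 and 8. Both were lower without passing, and for both metastasis 7 lies within the range of the primary lines. The log2 change was -0.48 (SE 0.27) for Rps12 and -0.50 (SE 0.29) for Rpl14, with adjusted p of 0.612 and 0.618 in edgeR's quasi-likelihood fit (Benjamini-Hochberg). The groups did not overlap for 5 members (13.6% of all genes). Of these, 4 were lower in the metastasis lines (7.27% of all genes), Rpl7a, Rpl6l, Rpl12 and Rps10, and 1 was higher (6.38% of all genes), Rpl36a.

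CTC against primary asks the same for lines from circulating tumour cells. Here 55 of 79 members were higher and 24 lower, with a median log2 change of 0.11, against -0.01 over all genes tested, of which 49.1% were above 0 and 50.6% below. Without CTC 6 the direction turned, to 25 higher and 54 lower with a median of -0.12, and without primary 5 the median was 0.03. In edgeR's quasi-likelihood fit with Benjamini-Hochberg correction 0 members were called (0% of all genes), 1 member, Rpl17, had an unadjusted p under 0.05 (4.06% of all genes), and DESeq2 and limma-voom called 0 members.

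Rps29, which encodes one of the smallest small-subunit proteins, was at 520, 509 and 517 CPM in CTC 1, 3 and 6 and at 366, 425 and 386 CPM in primary 5, 7 and 8. It lies on chromosome 12 from 69157722 to 69159186 of GRCm38 (ENSMUSG00000034892.8). Its CTC lines lie close together and above every other library, of which metastasis 5, 3 and 7 were at 331, 486 and 360 CPM and the parental library at 254 CPM. The log2 change of CTC against primary was 0.39 (SE 0.21), with an adjusted p of 0.994 in edgeR's quasi-likelihood fit (Benjamini-Hochberg). With the number as a fixed block it turned to -0.10, in a fit with 1 residual degree of freedom where CTC and primary lines share no number. Rpl39, of the large subunit, was at 414, 315 and 418 CPM in CTC 1, 3 and 6 and at 297, 293 and 290 CPM in primary 5, 7 and 8, with log2 change 0.38 (SE 0.21), adjusted p = 0.994 in the same edgeR fit (Benjamini-Hochberg). The groups did not overlap for 4 members (7.15% of all genes). All 4 were higher in the CTC lines (3.13% of all genes), namely Rps29, Rpl39, Rpl10 and Rpl36a, and 0 were lower (4.02% of all genes).

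Metastasis against CTC asks how lines from lung metastases differ from lines from circulating tumour cells. It shares its lines with both comparisons above. Here 5 of 79 members were higher and 74 lower, with a median log2 change of -0.26, against 0 over all genes tested, of which 49.8% were above 0 and 49.6% below. The size rests on CTC 6, the line with the highest ribosomal protein share: without it 35 were higher and 44 lower, with a median of -0.02. With the replicate number as a fixed block the median was -0.05, and with the number as a random block -0.17. In edgeR's quasi-likelihood fit with Benjamini-Hochberg correction 0 members were called (0.00502% of all genes), 1 member, Rps7, had an unadjusted p under 0.05 (3.29% of all genes), and DESeq2 and limma-voom called 0 members.

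Rps7, a small-subunit protein gene on chromosome 12 from 28630854 to 28635953 of GRCm38 (ENSMUSG00000061477.4), was at 722, 982 and 609 CPM in metastasis 5, 3 and 7 and at 1120, 1034 and 1488 CPM in CTC 1, 3 and 6. Each metastasis line was below each CTC line. The log2 change was -0.65 (SE 0.28), with an adjusted p of 1 in edgeR's quasi-likelihood fit (Benjamini-Hochberg). In metastasis 7, 32.1% of the counts of Rps7 and its pseudogene copies were in the copies, against 20.2% to 21.4% in the other libraries, so that line's low value is uncertain. The groups did not overlap for 6 members (8.28% of all genes). All 6 were lower in the metastasis lines (3.85% of all genes), namely Rps7, Rps29, Rpl7a, Rps4x, Rpl11 and Rpl37a, and 0 were higher (4.43% of all genes). In the test of any difference among the 3 derived groups 0 members were called (0% of all genes) in edgeR's quasi-likelihood fit (Benjamini-Hochberg). There 0 had an unadjusted p under 0.05 (5.2% of all genes), and DESeq2 and limma-voom called 0 members.

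The derived lines against the parental line asks what differs after passage through mice, with 1 parental library that is assumed to vary like the others. Of the 79 members 15 were higher and 64 lower, with a median log2 change of -0.38, against 0.10 over all genes tested, of which 53.9% were above 0 and 46.1% below. In edgeR's quasi-likelihood fit with Benjamini-Hochberg correction 0 members were called (0.0201% of all genes), 3 had an unadjusted p under 0.05 (10.3% of all genes), and DESeq2 and limma-voom called 0 members. Rps15, of the small subunit, was at 622 to 1151 CPM in the derived lines and at 1423 CPM in the parental library, with log2 change -0.89 (SE 0.31), adjusted p = 0.472 in edgeR's quasi-likelihood fit (Benjamini-Hochberg). Rps23, also of the small subunit, was at 497 to 925 CPM in the derived lines and at 1188 CPM in the parental library (log2 change -0.89, SE 0.38). Rps29 was the third and was higher in the derived lines (log2 change 0.76, SE 0.29). For both genes the adjusted p was 0.482 in the same edgeR fit (Benjamini-Hochberg).

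**Figure D3:**
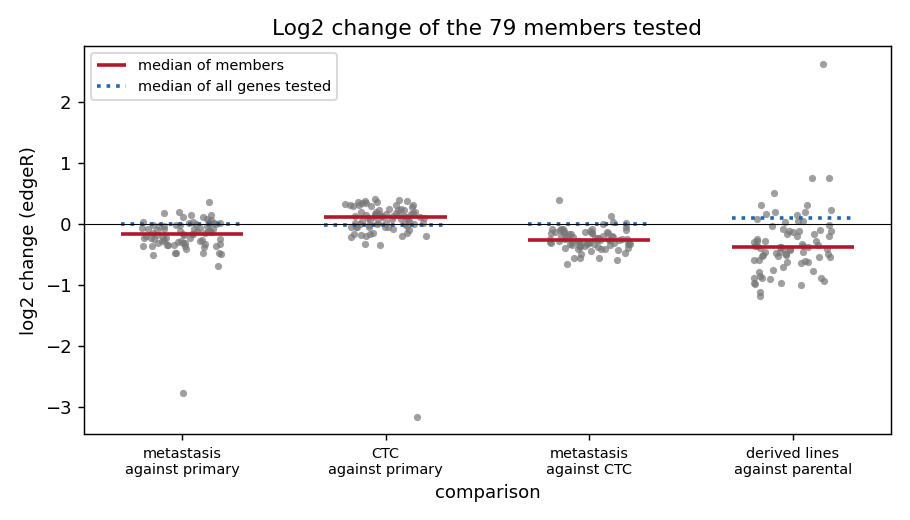
Log2 change of each of the 79 tested members (grey points) in the 4 comparisons, with the median of the members (red line) and of all genes tested (dotted blue line). The median of the members is -0.16, 0.11, -0.26 and -0.38 from left to right, and the outlying point below -2 in the first and second comparison and above 2 in the fourth is Rpl17.

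Among members with known special roles, those of the P stalk, the arm of the large subunit that recruits translation factors, moved in parallel, as most members did. Rplp0 was at 1403, 1130 and 2159 CPM in metastasis 5, 3 and 7, at 2151, 1846 and 2910 CPM in CTC 1, 3 and 6, at 1816, 2176 and 2213 CPM in primary 5, 7 and 8, and at 2807 CPM in the parental library. Rplp1 was at 1091, 980 and 1696 CPM in metastasis 5, 3 and 7, at 1714, 1258 and 2309 CPM in CTC 1, 3 and 6, at 1452, 1761 and 1523 CPM in primary 5, 7 and 8, and at 2090 CPM in the parental library. Rplp2 was at 506, 484 and 617 CPM in metastasis 5, 3 and 7, at 745, 508 and 940 CPM in CTC 1, 3 and 6, at 565, 632 and 722 CPM in primary 5, 7 and 8, and at 790 CPM in the parental library. All 3 were lowest in metastasis 3 and highest in CTC 6. The log2 change of metastasis against CTC was -0.56 (SE 0.28) for Rplp0, -0.49 (SE 0.29) for Rplp1 and -0.45 (SE 0.26) for Rplp2, each with an adjusted p of 1 in edgeR's quasi-likelihood fit (Benjamini-Hochberg).

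Rpl5 and Rpl11, which form a complex with the 5S ribosomal RNA, did not move alike. Rpl5 was at 384, 347 and 769 CPM in metastasis 5, 3 and 7, at 417, 393 and 945 CPM in CTC 1, 3 and 6, at 413, 577 and 943 CPM in primary 5, 7 and 8, and at 1069 CPM in the parental library, a 3.08-fold range. Rpl11 was at 471, 547 and 540 CPM in metastasis 5, 3 and 7, at 606, 561 and 679 CPM in CTC 1, 3 and 6, at 486, 660 and 657 CPM in primary 5, 7 and 8, and at 546 CPM in the parental library, a 1.44-fold range. Neither passed the test in any comparison. Of the 10 genes of the list around Mdm2 and p53, 4 were higher and 6 lower in metastasis against primary (above 0 at the median without primary 5), with 0 called. Cdkn1a, a p53 target that halts the cell cycle, had the smallest p there (8.80, 11.6 and 7.33 CPM in metastasis 5, 3 and 7, and 19.7, 13.8 and 28.8 CPM in primary 5, 7 and 8). Its log2 change was -1.17 (SE 0.47), with an adjusted p of 0.594 in edgeR's quasi-likelihood fit (Benjamini-Hochberg).

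Rpsa, a small-subunit protein that also acts as a laminin receptor, was at 834, 936 and 2332 CPM in metastasis 5, 3 and 7, at 1378, 1201 and 2125 CPM in CTC 1, 3 and 6, at 2119, 1527 and 1623 CPM in primary 5, 7 and 8, and at 2690 CPM in the parental library. Metastasis 7 stands well above the other metastasis lines. Over the 10 libraries, 13.8% to 92.0% of Rpsa counts were in transcripts annotated as not coding for the protein. A coding transcript of Rpsa held 140113 counts in metastasis 7, against 12501 in metastasis 5 and 552 in metastasis 3. Rps6, the substrate of S6 kinase, was at 958, 1050 and 1366 CPM in metastasis 5, 3 and 7, at 1276, 1023 and 1939 CPM in CTC 1, 3 and 6, at 943, 1019 and 1491 CPM in primary 5, 7 and 8, and at 1680 CPM in the parental library. CTC 6, the parental library and primary 8 were highest for Rps6, as for the members' mean, and primary 5 was lowest.

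The tissue-restricted paralogues were silent or nearly so. Rpl10l and Rpl39l, known from the testis, had 0 counts in all 10 libraries, and Rpl3l, known from striated muscle, reached 0.09 CPM. Their partners were well expressed, with Rpl3 at 859 to 1913 CPM and Rpl39 at 267 to 451 CPM. Rps27l, a p53-responsive paralogue of Rps27, is not one of these and was expressed. It was at 61.0, 54.6 and 132 CPM in metastasis 5, 3 and 7, and at 64.9, 60.1 and 152 CPM in CTC 1, 3 and 6. In primary 5, 7 and 8 Rps27l was at 62.2, 133 and 152 CPM, and in the parental library at 184 CPM. Rps27 itself lay between 371 and 563 CPM. Rps27l followed the other members (r = 0.84) where Rps27 did so little (r = 0.27). Rpl22 lay between 330 and 531 CPM. Its paralogue Rpl22l1, which the naming rule leaves out, was at 73.0, 28.4 and 49.2 CPM in metastasis 5, 3 and 7, at 102, 32.9 and 143 CPM in CTC 1, 3 and 6, at 105, 52.8 and 59.8 CPM in primary 5, 7 and 8, and at 113 CPM in the parental library.

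Levels between members can be compared only per length of transcript. On that scale, as the median over libraries, Rplp1 was highest at 3226 CPM per kb, and Rpl13 was among the highest at 1920 CPM per kb. The lowest of the tested members were Rpl32l at 0.642, Rpl6l at 19.4 and Rpl17 at 31.5 CPM per kb. Between the 90th and the 10th percentile of the members, levels per kb differed by 5.04-fold to 8.18-fold within a library. The order was stable, with rank correlations of 0.811 to 0.983 between libraries over 79 members. Rpl13, a large-subunit gene, was at 1476, 1157 and 2216 CPM in metastasis 5, 3 and 7, at 1313, 1112 and 2686 CPM in CTC 1, 3 and 6, at 1532, 1382 and 2158 CPM in primary 5, 7 and 8, and at 3278 CPM in the parental library.

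**Figure D4:**
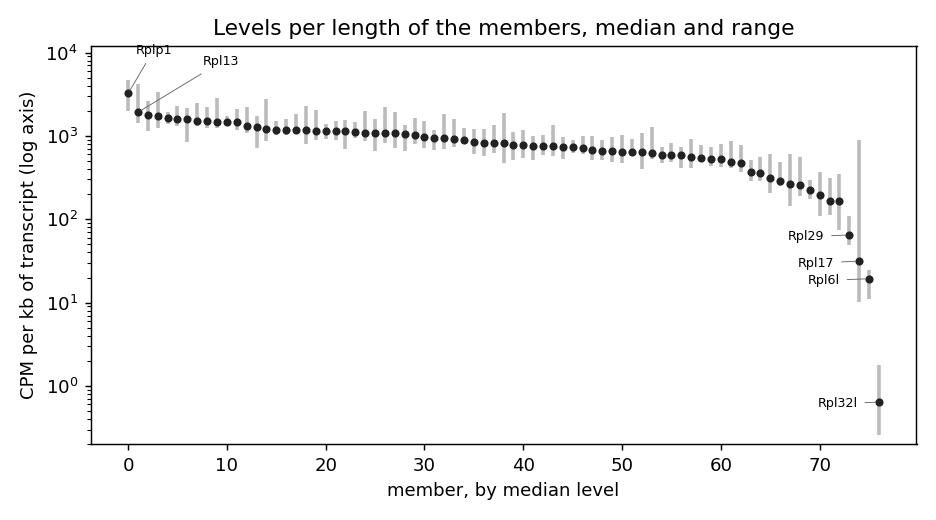
Level per kb of transcript (CPM per kb, log axis) of 77 of the 79 tested members, ordered by their median over the 10 libraries (points), with the range over libraries (bars). Rplp1 is highest at 3226 CPM per kb, and Rpl29, Rpl17, Rpl6l and Rpl32l lie apart from the rest at the low end.

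Ribosomal protein genes have many processed pseudogenes whose sequence is close to that of the parent, so reads can be assigned to either. A search of annotated pseudogenes (blastn, at least 90% identity over at least 80% of the coding sequence) found 920 copies for 70 of the 80 protein-coding members. For 8 members the copies held more counts than the gene itself, as the median over libraries: Rpl29 (93.4% in copies), Rps2 (87.1%), Rpl26 (87.0%), Rpl17 (72.3%), Rpl35a (67.1%), Rpl21 (55.8%), Rpl30 (52.9%) and Rplp0 (51.3%). The copy with the most counts, Gm8730 of Rplp0 (98.7% identical), was at 1417, 1506 and 2177 CPM in metastasis 5, 3 and 7, and at 2032, 1789 and 2840 CPM in CTC 1, 3 and 6. In primary 5, 7 and 8 it was at 1774, 2156 and 2167 CPM, and in the parental library at 2688 CPM. Whether such counts come from the pseudogene or its parent was not tested, and the levels of these 8 members are uncertain. With copies added to their parent, the median log2 change was -0.17 in metastasis against primary, 0.11 in CTC against primary and -0.26 in metastasis against CTC, close to the values above.

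**Figure D5:**
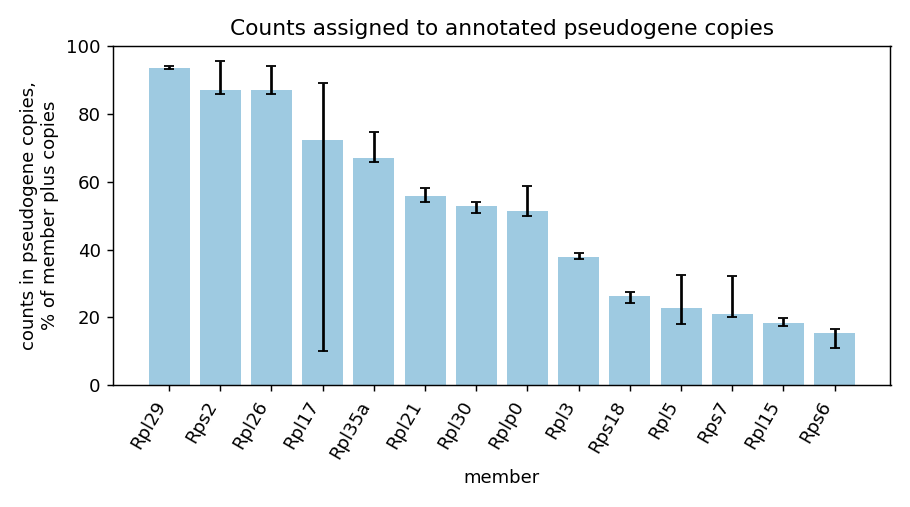
Percent of the summed counts of a member and its pseudogene copies that the table assigns to the copies, for the 14 members above 10%; bars give the median over the 10 libraries and lines the lowest and highest library. Rpl29 is highest at 93.4%, and Rpl17 has the widest range.

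The member with the largest SD, Rpl17 of the large subunit, was high in a single library. It was at 43.4, 38.3 and 23.7 CPM in metastasis 5, 3 and 7, and at 28.2, 39.8 and 12.4 CPM in CTC 1, 3 and 6. It was at 690, 11.6 and 15.1 CPM in primary 5, 7 and 8, and at 9.82 CPM in the parental library. The log2 change was -2.77 (SE 1.35) in metastasis against primary and -3.16 (SE 1.37) in CTC against primary, with adjusted p of 0.594 and 0.994 in edgeR's quasi-likelihood fit (Benjamini-Hochberg). Without primary 5 the changes were 1.40 and 1.01. Among the 17126 unnamed assembled entries, 2 had under 100 counts in primary 5 and over 5000 in each of the other libraries, a search chosen after the values of Rpl17 were seen. One of them was at 0.18 CPM in primary 5 and at 490 to 1063 CPM elsewhere, and its sum with Rpl17 varied 2.14-fold over the libraries, against 70.3-fold for Rpl17 alone. With the other entry the sum varied 4.27-fold. The table ties neither entry to a gene, and whether either holds Rpl17 reads was not tested.

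The 4 members next in SD of log2 CPM were Rpl32l (0.83), Rps27l (0.70), Rpl18 (0.68) and Rpl26 (0.65). Rpl18, of the large subunit, was at 499, 326 and 980 CPM in metastasis 5, 3 and 7, at 527, 380 and 1155 CPM in CTC 1, 3 and 6, at 517, 616 and 920 CPM in primary 5, 7 and 8, and at 1287 CPM in the parental library. Rpl26, also of the large subunit, was at 39.4, 82.0 and 138 CPM in metastasis 5, 3 and 7, at 68.4, 75.8 and 135 CPM in CTC 1, 3 and 6, at 90.9, 81.9 and 140 CPM in primary 5, 7 and 8, and at 187 CPM in the parental library. The pseudogene Rpl32l stayed at or below 0.71 CPM. Rpl18 kept to the common order of lines (r = 0.94), with CTC 6 and the parental library highest.

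Lists of genes around the ribosome were compared with the members by their counts and medians. Of 56 ribosome biogenesis genes, 4 were higher and 52 lower in metastasis against primary (median log2 change -0.62), with 0 called. Their mean deviation was 0.61 in CTC 6, 0.61 in parental 1, 0.78 in primary 8, 0.27 in primary 7 and 0.21 in metastasis 7. It was -0.18 in primary 5, -0.43 in CTC 1, -0.62 in CTC 3, -0.74 in metastasis 5 and -0.51 in metastasis 3. CTC 6, parental 1 and primary 8 were thus the highest 3 for these genes and for the members, while primary 7 was above 0 here and below 0 for the members, and CTC 1 the reverse. Utp20, needed for the small subunit's RNA processing, had the smallest p (42.9, 49.4 and 65.7 CPM in metastasis 5, 3 and 7, and 95.6, 125 and 219 CPM in primary 5, 7 and 8). Its log2 change was -1.48 (SE 0.39), with an adjusted p of 0.594 in edgeR's quasi-likelihood fit (Benjamini-Hochberg). Bop1, a factor of large-subunit maturation, was next (log2 change -1.27, SE 0.44, the same adjusted p by that edgeR test). Of 12 host genes of small nucleolar RNAs, which like the members often carry the TOP motif, 1 was higher and 11 lower (median -0.67), with 0 called. Gas5 of that list was at 194, 149 and 467 CPM in metastasis 5, 3 and 7, at 135, 128 and 706 CPM in CTC 1, 3 and 6, at 283, 316 and 348 CPM in primary 5, 7 and 8, and at 583 CPM in the parental library, and was named after its values were seen.

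Other lists leaned less. Of 20 translation factors with TOP messages, 9 were higher and 11 lower in metastasis against primary (median -0.03, above 0 with upper-quartile scaling and without primary 8). One of them, Tpt1, was at 4049, 4680 and 3612 CPM in metastasis 5, 3 and 7, and at 4441, 3936 and 3997 CPM in CTC 1, 3 and 6. It was at 2475, 1804 and 2640 CPM in primary 5, 7 and 8. At 3632 CPM in the parental library, Tpt1 lay within the range of the metastasis and CTC lines and above the primary lines. It was higher in each metastasis and CTC line than in each primary line (log2 change 0.83 and 0.84, SE 0.21 each), with adjusted p of 0.594 and 0.994 in edgeR's quasi-likelihood fit (Benjamini-Hochberg). Of 26 initiation factor genes 3 were higher and 23 lower (median -0.38), of 21 chaperone genes 3 and 18 (-0.27), and of 77 mitochondrial ribosomal protein genes 12 and 65 (-0.41). Of the 8 ribosome genes that the naming rule leaves out, such as Fau and Rack1, 2 were higher and 6 lower (-0.05, above 0 with upper-quartile scaling and without primary 8 or metastasis 3). None of these lists had a gene called.

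In the other comparisons these lists also had 0 genes called. Of the biogenesis genes, 7 were higher and 49 lower in CTC against primary (median log2 change -0.30), and 10 and 46 in metastasis against CTC (median -0.22, above 0 without CTC 6). Against the parental line 5 were higher and 51 lower in the derived lines (median -0.55). Of the mitochondrial ribosomal protein genes, 17 were higher and 60 lower in the derived lines against the parental line (median -0.46). The ribosome genes that the naming rule leaves out had 7 higher and 1 lower in CTC against primary (median 0.18, below 0 without CTC 6). Sbds, which helps release the large subunit for use, had the smallest p of the biogenesis genes in the derived lines against the parental line, with log2 change -1.45 (SE 0.40), adjusted p = 0.451 in edgeR's quasi-likelihood fit (Benjamini-Hochberg).

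Of 26 genes that control TOP messages or ribosome synthesis, 14 were higher and 12 lower in metastasis against primary (median 0.09, below 0 without primary 7 or any 1 of the metastasis lines), with 0 called. Mxd4, a repressor that competes with Myc for Max, was at 113, 114 and 57.1 CPM in metastasis 5, 3 and 7, at 94.2, 92.6 and 22.5 CPM in CTC 1, 3 and 6, at 16.0, 10.8 and 4.38 CPM in primary 5, 7 and 8, and at 20.98 CPM in the parental library. Its log2 change was 3.19 (SE 0.66) in metastasis against primary and 2.75 (SE 0.65) in CTC against primary, with adjusted p of 0.594 and 0.994 in edgeR's quasi-likelihood fit (Benjamini-Hochberg). Myc, an activator of ribosome synthesis genes, was named after its values were seen. It was at 182, 226 and 674 CPM in metastasis 5, 3 and 7, and at 217, 202 and 1436 CPM in CTC 1, 3 and 6. Myc stood at 408, 443 and 1738 CPM in primary 5, 7 and 8, and at 1579 CPM in the parental library. The 4 libraries with the highest Myc were thus the 4 with the highest mean of the ribosomal protein genes. Below them the orders differed. CTC 1, next for the members with a mean deviation of 0.03, had less Myc than primary 5 and primary 7. A link between Myc and the members was not tested. Myc did not pass the test in any comparison (log2 change of metastasis against primary -1.26, SE 0.91, adjusted p 0.662 in edgeR's quasi-likelihood fit (Benjamini-Hochberg)).

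The 5 genes outside the set whose log2 CPM was most like the members' mean over the 10 libraries were the pseudogenes Mrpl23-ps1, Rps13-ps5 and Rps13-ps1 (each r = 0.97), and Cwc22 and Ndufab1 (each r = 0.97). Cwc22, a splicing factor gene, was at 24.0, 20.8 and 36.2 CPM in metastasis 5, 3 and 7, at 37.3, 25.9 and 58.6 CPM in CTC 1, 3 and 6, at 31.6, 37.3 and 52.8 CPM in primary 5, 7 and 8, and at 61.7 CPM in the parental library.

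Other measures of the libraries are given beside the ribosomal protein share, and their part in it was not tested. The share of unnamed entries was highest in the libraries with the highest ribosomal protein share, and the other measures did not follow it throughout. Total counts were between 79869760 and 97722716 per library. Unnamed assembled entries took 22.8% of the counts in CTC 6, 22.5% in metastasis 7, 22.4% in the parental library and 20.9% in primary 8, against 19.7% to 20.8% in the 6 others. Mitochondrially encoded genes took 2.24% to 3.02% of named-gene counts in metastasis, 1.01% to 2.12% in CTC and 1.09% to 1.62% in primary lines, and 1.67% in the parental library. CTC 6 and primary 8 were the lowest, while metastasis 7, the metastasis line with the highest ribosomal protein share, was at 2.43%. All 13 of these genes were higher in metastasis against primary (median log2 change 0.86), with 0 called. Of 13 tested genes whose RNA lacks a poly-A tail, 5 were higher and 8 lower (median -0.52, above 0 without primary 8), with 0 called, and all 25 cell cycle genes were lower (median -1.17), with 0 called. The genes without a poly-A tail leaned the same way as the members in the comparisons with CTC, with 12 higher and 1 lower in CTC against primary (median 0.73) and 1 higher and 12 lower in metastasis against CTC (median -1.42). Of the cell cycle genes, 7 were higher and 18 lower in CTC against primary (median -0.08, above 0 without CTC 6 or primary 7), and all 25 were lower in metastasis against CTC (median -1.03). None of these genes was called in either comparison, and their part in the members' leans was not tested.

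The 4 fibroblast markers summed to 13.6 to 284 CPM in metastasis, 10.9 to 142 CPM in CTC and 4.88 to 61.8 CPM in primary lines, and to 5.10 CPM in the parental library, lowest in primary 8. Nearly all of this was Pdgfra, which reached 269 CPM, while the collagens Col1a1 and Col3a1 reached 2.32 and 0.33 CPM and Dcn 12.4 CPM. Both red cell markers were at 0, and Cd3e, Adgre1 and Sftpc, which mark T cells, macrophages and lung epithelium, were at 0. The leukocyte marker Ptprc reached 0.23 CPM. The summed leukocyte, endothelial and adipocyte lists reached 0.97, 1.31 and 0.32 CPM, the lung epithelial list 2 CPM, and the macrophage list 19.7 CPM, mostly Mertk. The 4 markers of the carcinoma line, Krt8, Krt18, Epcam and Erbb2, were present in every library. Their sum was 717 to 2626 CPM in metastasis and 1034 to 2355 CPM in CTC lines. It was 1479 to 1857 CPM in primary lines and 549 CPM in the parental library. By gene, levels ran from 54.7 to 1232 CPM for Krt8 and from 303 to 1462 CPM for Krt18. Epcam ran from 15.7 to 204 CPM and Erbb2 from 25.9 to 60.3 CPM. Against primary lines, Epcam was lower in metastasis (log2 change -1.99, SE 0.56) and in CTC lines (-2.45, SE 0.57). In both comparisons 2 of the 4 markers were higher and 2 lower, with 0 called.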

How the data were processed

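RNA from 10 mouse lines was sequenced. The submitters' processing notes list the GRCm38 build with HISAT2 2.1.0, StringTie 2.0.3 and DESeq2 1.26.0. The authors deposited unscaled estimated counts for genes and transcripts. Whether counting used strand is not stated, so members that share exon bases with another gene (37 of 83, 15 of them with a protein-coding gene) are uncertain. Unnamed entries (19.7% to 22.8% of counts) were left out of the tests. The gene positions, transcript types and pseudogenes are from GENCODE M21, and promoter sequences from RefSeq.

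Genes were tested in edgeR 4.0.16 (R 4.3.3) by its quasi-likelihood method, with TMM factors and filterByExpr. All 10 libraries entered one model with 4 groups, and p-values were Benjamini-Hochberg adjusted over 19936 genes at 0.05. The common biological coefficient of variation was 0.606. CPM are counts over the TMM-scaled library size, and SE is the log2 change over the square root of F. Copies were found with blastn 2.17.0. The test was tried on simulated data. Alternatives were other scalings, filters, limma-voom (limma 3.58.1), DESeq2 1.42.0, all entries, the number as a block and each derived line left out. Summing members with their pseudogene copies and fitting the 9 derived lines alone were added after the data were seen.

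Members in full were those with the 3 smallest p per test, those with special roles, the 3 highest and 3 lowest per length and the 5 with the largest SD; from each other list, those ranked first by p. Rps13 and Rpl6 were outside these rules and were given in full for their r, a value of these data. Cwc22 was given for its likeness to the members' mean and Gm8730 as the copy with the most counts. Any other gene given by library is marked. No sequence from chromosome 18 is printed. The members and lists were chosen with earlier results of these data known. Title numbers are shared by primary 5 and metastasis 5, primary 7 and metastasis 7, and CTC 3 and metastasis 3. Their deviations from the group means correlated at 0.319, 0.12 and 0.406, all above 0.1, so lines sharing a number were taken as pairs in the blocked fits; this comes from the values, not from the labels. Lines with different numbers correlated as much or more, such as CTC 6 with metastasis 7 (0.506) and primary 8 with CTC 6 (0.43), so the pairing is weakly based. Results of some genes are not reported here.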

Additional observations from a re-analysis of the deposited data

How the results depend on the processing

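Under every alternative, 0 members were called in each comparison. Of the 19936 genes tested, edgeR called 0 and DESeq2 175 in metastasis against primary. In CTC against primary edgeR called 0 and DESeq2 66, and in metastasis against CTC 1 and 27. For any difference edgeR called 0 and DESeq2 137, and in derived against parental 4 and 671. With so small a part of all genes called, 0 of 79 members says little about the members. Metastasis against CTC called 0 genes with no filter, with all entries and with a fixed block. Metastasis against primary called 1 gene with a mean count of 10 or more. Derived against parental called 24 with limma-voom and 42 with all entries. With single lines left out, the counts ran from 0 to 1 in metastasis against primary, in metastasis against CTC and in any difference.

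With the number as a random replicate block, which pairs the lines (estimated correlation 0.484), limma-voom called 1 gene in metastasis against primary, 1 in any difference and 19 in derived against parental. The fixed block leaves 1 residual degree of freedom and cannot give the derived lines against the parental one. It put the median of the members at 0.07 in metastasis against primary (48 higher, 31 lower), the random block at -0.05, and turned Rps29 in CTC against primary to -0.10. Rpl17 ran from -3.33 to 1.40 in metastasis against primary and from -3.72 to 1.01 in CTC against primary, lowest without primary 7 and highest without primary 5. Biogenesis genes turned to a median of 0.32 in metastasis against CTC without CTC 6. The cause of these turns was not tested.

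With single lines left out, the median of the members ran from -0.32 to 0.00055 in metastasis against primary, from -0.12 to 0.29 in CTC against primary and from -0.40 to -0.02 in metastasis against CTC. With all counts as denominator the share was 4.34% in metastasis and 4.72% in primary lines. With named pseudogenes it was 6.46% and with all copies 7.10% in primary lines. Over all settings, 278 main values were counted as kept and 28 as moved. The kept values include the counts of members called, which were 0 throughout and say little about stability. A median or share counted as kept when it stayed within the SD among the lines of a group, whatever its sign. The median of metastasis against primary that turned with the fixed block was thus counted as kept. Of the single-gene values, 305 kept their direction or their side of the threshold and 3 turned. DESeq2 gave no adjusted p for Rpl17 in the test of any difference.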
